A study of Rattus norvegicus with 12 samples.

Results

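Transcripts of 10 clock genes were followed in the rat cell line N27, which the labels call dopaminergic neural cells, after 24 h in 25 µM fipronil (6 samples) or without it (6 untreated control samples). The insecticide fipronil, a phenylpyrazole, acts on GABA-gated chloride channels. The genes were Dbp, Tef, Nfil3, Per1, Per2, Cry1, Ciart, Nr1d1, Nr1d2 and Arntl, and their probes were found by the gene name in the array files. Arntl is the older symbol of Bmal1. They had 17 of the 45598 probes on the Agilent one-colour array, and 8 of the 10 genes were tested among 13541 genes, the condition being a signal well above background on 6 or more of the 12 arrays. The labels name 1 cell line for all samples, give no vehicle for the controls and do not say whether the samples of a group were separate cultures. The p-values therefore measure only how these samples scatter, and that scatter may be technical.

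The circadian clock is a loop of transcription factors in which BMAL1 (the product of Arntl) and CLOCK switch on genes through E-boxes, and PER and CRY proteins, with CIART, repress them. NR1D1 and NR1D2 repress Arntl through ROR elements. The PAR bZIP factors DBP and TEF are outputs of the loop that activate genes through D-boxes, which NFIL3 represses. In cultured cell lines each cell can hold its own phase, so a transcript level in a whole dish is an average over phases unless the cells were synchronised, and the labels give neither a synchronising step nor a clock time of harvest.

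The arrays lay on 3 slides, each with its own scan. Slide 1 held fipronil replicates 7 and 8 and control replicates 2 and 3. Slide 3 held fipronil replicates 1 to 4 alone, and slide 2 held control replicates 5 to 8 alone, so that outside slide 1 slide and treatment cannot be told apart. The 75th percentile of the processed signal was 111 to 140 on the fipronil arrays of slide 3 and 379 to 472 on the control arrays of slide 2. On slide 1 it was 245 to 246 on the fipronil arrays and 269 to 279 on the control arrays. Every level below is a log2 signal minus that array's own 75th percentile, and a difference is the fipronil mean minus the control mean. The labelled cell type was only partly borne out by its markers. Th, the enzyme that makes the dopamine precursor, stood above background on 12 arrays, whereas Ddc, Pitx3 and Slc6a3 did so on none. Neuronal Map2, Rbfox3 and Snap25 were also above background on no array, as were astrocytic Gfap, S100b and Slc1a3 and microglial Aif1, Itgam and Ptprc. Other markers were detected, with dopaminergic Aldh1a1 above background on 8 arrays, neuronal Tubb3 on 9 and microglial Cx3cr1 on 12. In such bulk RNA, fewer cells of a type and less RNA per cell cannot be told apart.

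Regulatory words of the clock were looked up in RefSeq promoter windows of the rat assembly GRCr8, 250 bases before to 50 after each annotated start, on both strands. A window was given for 9 of the 10 genes (not Cry1). The 3 promoters below are shown because each holds a different clock word, in capitals, within the 250 bases before the start. Arntl holds the ROR element AAGTAGGTCA at chr1:176766078-176766327, plus strand. Tef holds the E-box CACGTG at chr7:115206577-115206826, plus strand. Per2 holds the D-box TTATGTAA (searched with TTACGTAA and TTATGCAA) and the E-box variant CACGTT at chr9:99496994-99497243, minus strand.
Arntl: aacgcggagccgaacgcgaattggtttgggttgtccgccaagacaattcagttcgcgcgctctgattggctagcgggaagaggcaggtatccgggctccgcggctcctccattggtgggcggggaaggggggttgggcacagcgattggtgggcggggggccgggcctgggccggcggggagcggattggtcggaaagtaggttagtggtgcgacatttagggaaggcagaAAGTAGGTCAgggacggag
Tef: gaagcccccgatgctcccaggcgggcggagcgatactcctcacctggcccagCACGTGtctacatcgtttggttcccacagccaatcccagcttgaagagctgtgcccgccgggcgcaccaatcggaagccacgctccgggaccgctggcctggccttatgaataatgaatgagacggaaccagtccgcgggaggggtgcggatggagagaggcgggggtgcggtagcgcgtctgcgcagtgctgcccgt
Per2: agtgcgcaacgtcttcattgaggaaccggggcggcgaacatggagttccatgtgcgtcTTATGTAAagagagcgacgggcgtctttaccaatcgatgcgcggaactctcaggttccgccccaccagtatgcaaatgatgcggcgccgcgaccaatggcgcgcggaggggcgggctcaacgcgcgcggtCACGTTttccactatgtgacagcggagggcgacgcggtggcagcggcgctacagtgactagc

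The ROR element of Arntl begins 19 bases before the start, and such an element was found in 0.481% of 33469 promoter windows. The E-box of Tef begins at -198. E-boxes were found in 6.42% of windows. In Per2 the D-box begins at -192 and the E-box variant at -62, words found in 1.85% and 4.83% of windows. Ciart had 3 E-boxes, beginning at -93, -35 and -21. Of the 2 Nr1d1 windows, one held an E-box at -191 and the other an E-box variant at -174. These words do not overlap within a window, and none was found in the windows of Dbp, Nfil3, Per1 and Nr1d2. The cAMP response element TGACGTCA (1.83% of all windows) was found in no clock gene's window. These matches describe the letters of short windows, and binding was not measured here.

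Among the 8 tested clock genes, Dbp rose and none fell past the threshold (limma, adjusted p under 0.05 over 13541 genes). Across all genes tested 5.01% passed, 2.24% higher and 2.77% lower with fipronil. At an unadjusted p under 0.05, 5 of the 8 were higher (Dbp, Tef, Per1, Cry1 and Nr1d2) and 2 were lower (Arntl and Nfil3), against 25% of all genes, 9.37% higher and 15.7% lower. The median difference of the 8 genes was 0.40 on the log2 scale, against -0.08 for all genes tested. The members were chosen with earlier results of these data known, so these shares and medians are no test of the clock genes as a set. On slide 1 alone 4 of the 8 were higher and 4 lower, with a median of -0.03, against -0.02 for all genes. Dbp, Tef, Per1 and Arntl had the same direction on slide 1 and across the other slides, which is 4 of 8, against 43.8% of all genes. When slide was a fixed block, so that the treatment term came from slide 1, Dbp did not pass (limma, adjusted p = 0.151). Of the 8 genes only Ciart crossed the threshold in that fit, lower with fipronil. Its fipronil arrays on slide 1 were not well above background, so it is not given as a call. In that fit 0.0886% of all genes passed, and 19% had an unadjusted p under 0.05.

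**Figure D1:**
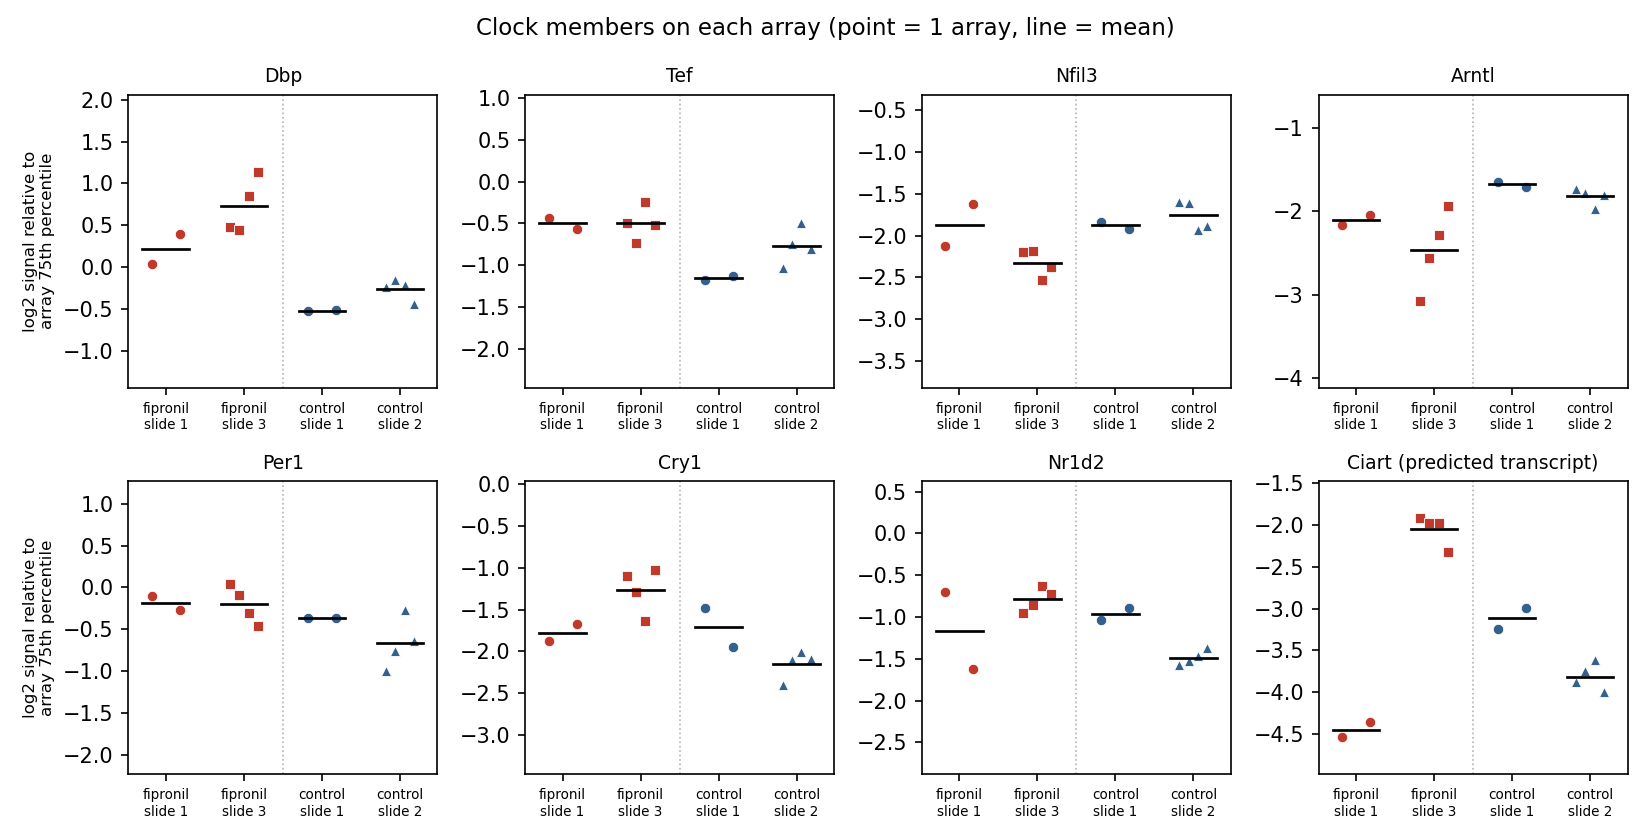
Log2 signal of the 8 tested clock genes relative to the 75th percentile of each array (vertical axes, each spanning the same range) by treatment and slide; each point is 1 array and each line the mean of the arrays above its label. Dbp is the gene whose fipronil arrays all lie above all control arrays, and for Nr1d2 and Ciart the order of fipronil and control means on slide 1 is opposite to that of slide 3 against slide 2. For Nfil3 and Cry1 the slide 1 means nearly coincide (0.0017 and -0.06).

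Dbp, the D-box-binding output factor whose transcript is under direct E-box control in mammals, was read by 2 probes. The probe with 10 spots, which stands for the gene, lies at chr1:96178423-96178482 of the rn4 assembly named in the file headers. It gave 0.04 and 0.39 on the fipronil arrays of slide 1 and 0.47, 0.45, 0.85 and 1.14 on those of slide 3. The control arrays gave -0.52 and -0.52 on slide 1 and -0.24, -0.15, -0.22 and -0.45 on slide 2. All 6 fipronil arrays were above all 6 control arrays, as was the case for 1.63% of all genes tested. A lack of overlap in either direction was found for 4.18% of genes, and 2.55% had all fipronil arrays below all controls. The level averaged 0.56 ± 0.38 with fipronil and -0.35 ± 0.17 in controls (SD, n = 6 each). The difference was 0.91 ± 0.17 (SE), a 1.87-fold rise (limma, adjusted p = 0.0154). The nearest fipronil and control arrays were 0.189 apart, and the SD over the replicate spots within an array was 0.0473 to 0.196. The difference was 0.73 within slide 1 and 0.99 between slides 3 and 2, and the 2 estimates were not separated by the test of their contrast (-0.26, adjusted p = 0.558). The adjusted p was 0.0802 with slide as a random block, under which 0.155% of all genes passed.

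The other Dbp probe, with 1 spot, begins 138 bases away at chr1:96178285-96178344 (rn4) and is annotated to the same transcript. It gave 0.28 and 0.49 on the fipronil arrays of slide 1 and -0.76, -0.89, -0.36 and -0.49 on those of slide 3. The controls gave -0.63 and -0.68 on slide 1 and 0.13, 0.04, -0.42 and -0.28 on slide 2. On slide 1 both fipronil arrays were above both controls, by 1.04 on average, a 2.05-fold difference. Across slides 3 and 2 the same probe was lower with fipronil, by -0.49. Over 12 arrays its difference was 0.02 ± 0.24 (SE), which did not pass when all 16291 probes were tested (limma, adjusted p = 0.974; 5.3% of probes passed). The contrast between slide 1 and the other slides was 1.53 for this probe (adjusted p = 0.0199; 8.19% of probes passed that test). In the fixed-block fit over all probes its adjusted p was 0.101, that of the 10-spot probe was 0.154, and 0.0246% of probes passed. The 10-spot probe stood for Dbp as the brighter over 12 arrays, but in controls the 1-spot probe was the brighter (-0.30 against -0.35). The choice of probe thus used the fipronil values, and the Dbp call rests on it. When the 2 probes were averaged, the difference in Dbp was 0.46 and did not pass (adjusted p = 0.0849).

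The disagreement between the Dbp probes lay on slide 3. The log2 ratio of the 1-spot over the 10-spot probe was 0.24 and 0.10 on the fipronil arrays of slide 1 and -1.23, -1.34, -1.21 and -1.63 on those of slide 3. It was -0.11 and -0.16 on the control arrays of slide 1 and 0.37, 0.20, -0.20 and 0.17 on those of slide 2. The 4 arrays of slide 3 therefore stood apart from the other 8. Among 1663 genes with 2 tested probes, the gap between the probes' slide 3 minus slide 2 differences had a median of 0.389. For Dbp it was 1.49, and 3.25% of these genes had a gap at least as large. Over 12 arrays the gap for Dbp was 0.89, against a median of 0.283, and 7.04% of these genes had a gap at least as large. On slide 1 the gap for Dbp was 0.304, against a median of 0.232. Which probe follows the transcript on slide 3 was not tested.

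**Figure D2:**
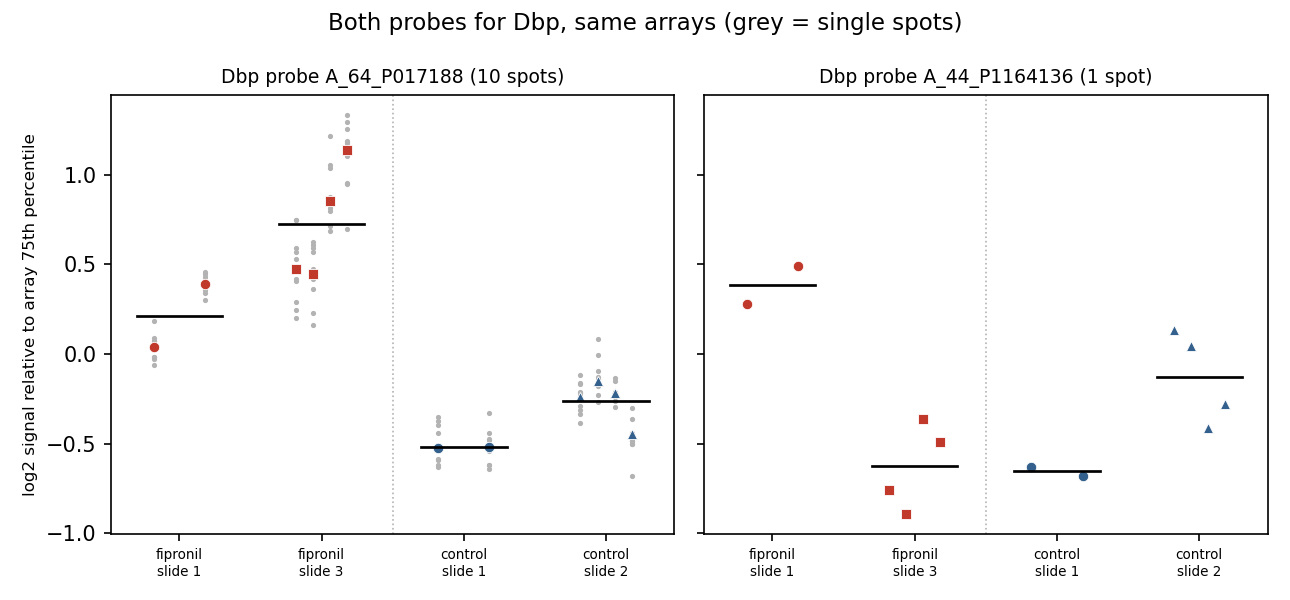
Log2 signal relative to the array's 75th percentile of the 2 Dbp probes on the same 12 arrays, by treatment and slide; coloured points are arrays, lines are means and grey points are the single spots of the 10-spot probe. On slide 1 both probes are higher with fipronil (by 0.73 and 1.04), and on slide 3 the left probe lies above the slide 2 controls while the right probe's mean lies below them.

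Tef, the PAR bZIP factor closest in role to Dbp, did not pass over 12 arrays. Its probe lies at chr7:120179652-120179711 (rn4, as for all probes below). Its fipronil arrays gave -0.43 and -0.57 on slide 1 and -0.49, -0.74, -0.25 and -0.52 on slide 3. Its control arrays gave -1.18 and -1.13 on slide 1 and -1.04, -0.75, -0.50 and -0.80 on slide 2. On slide 1 the groups were well apart, and between slides 3 and 2 they overlapped. The level averaged -0.50 ± 0.16 with fipronil and -0.90 ± 0.26 in controls (SD, n = 6 each), a difference of 0.40 ± 0.14 (SE; limma, adjusted p = 0.0942). The difference was 0.65 on slide 1 (fixed block for slide, adjusted p = 0.144) and 0.27 across the other slides.

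Nfil3, which represses at the D-boxes that DBP and TEF activate, was lower over 12 arrays without passing. Its probe, at chr17:18107192-18107251, gave -2.13 and -1.62 on the fipronil arrays of slide 1 and -2.20, -2.18, -2.53 and -2.37 on those of slide 3. The controls gave -1.84 and -1.92 on slide 1 and -1.60, -1.61, -1.93 and -1.89 on slide 2. The groups overlapped on slide 1, where the difference was 0.0017, and were apart between slides 3 and 2, where it was -0.57. The means were -2.17 ± 0.31 with fipronil and -1.80 ± 0.15 in controls (SD, n = 6 each), a difference of -0.38 ± 0.15 (SE; limma, adjusted p = 0.134).

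Arntl, the activator at the head of the loop, was the other member lower over 12 arrays. Its probe lies at chr1:171161969-171162028. The fipronil arrays gave -2.17 and -2.05 on slide 1 and -3.08, -2.56, -2.28 and -1.94 on slide 3. The control arrays gave -1.65 and -1.71 on slide 1 and -1.73, -1.78, -1.97 and -1.80 on slide 2. Of the 6 fipronil arrays, 5 lay below all controls, and fipronil replicate 4 lay within their range. The means were -2.35 ± 0.42 with fipronil and -1.77 ± 0.11 in controls (SD, n = 6 each). The difference of -0.57 ± 0.17 (SE) did not pass (limma, adjusted p = 0.0669). It was -0.43 on slide 1 (fixed block for slide, adjusted p = 0.429) and -0.64 across the other slides.

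Within an array, the ratio of 2 genes does not depend on the scaling between arrays. Its zero is arbitrary, because probes differ in brightness per molecule, and it shows unequal change only. The ratio does depend on how background is removed. Processed signals of Arntl were 16 to 30 on slide 3, against 114 to 136 on slide 2. With the normexp background and the 75th percentile, Arntl differed by 0.12 and Dbp by 0.71, against -0.57 and 0.91 as reported. The ratios below were not recomputed in that setting. The log2 ratio of Dbp (10-spot probe) over Arntl was 2.21 and 2.44 on the fipronil arrays of slide 1 and 3.55, 3.01, 3.13 and 3.07 on those of slide 3. It was 1.12 and 1.19 on the control arrays of slide 1 and 1.49, 1.63, 1.75 and 1.36 on those of slide 2. All fipronil arrays exceeded all controls, with means of 2.90 ± 0.49 with fipronil and 1.42 ± 0.25 in controls (SD, n = 6 each). The 10-spot probe's own level already separated the groups. The share of other gene pairs whose ratios separate them was not computed. With the 1-spot Dbp probe the ratio was 2.45 and 2.53 on the fipronil arrays of slide 1, against 1.02 and 1.03 on the control arrays. That probe's ratios overlapped between slides 3 and 2, with means of 1.84 and 1.69. Per1 over Arntl averaged 2.15 ± 0.58 with fipronil and 1.21 ± 0.32 in controls, with overlapping arrays. Tef over Nfil3 averaged 1.67 ± 0.41 with fipronil and 0.90 ± 0.32 in controls, also with overlap, and Dbp over Nfil3 averaged 2.73 ± 0.61 with fipronil and 1.45 ± 0.14 in controls. These ratios were not tested.

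**Figure D3:**
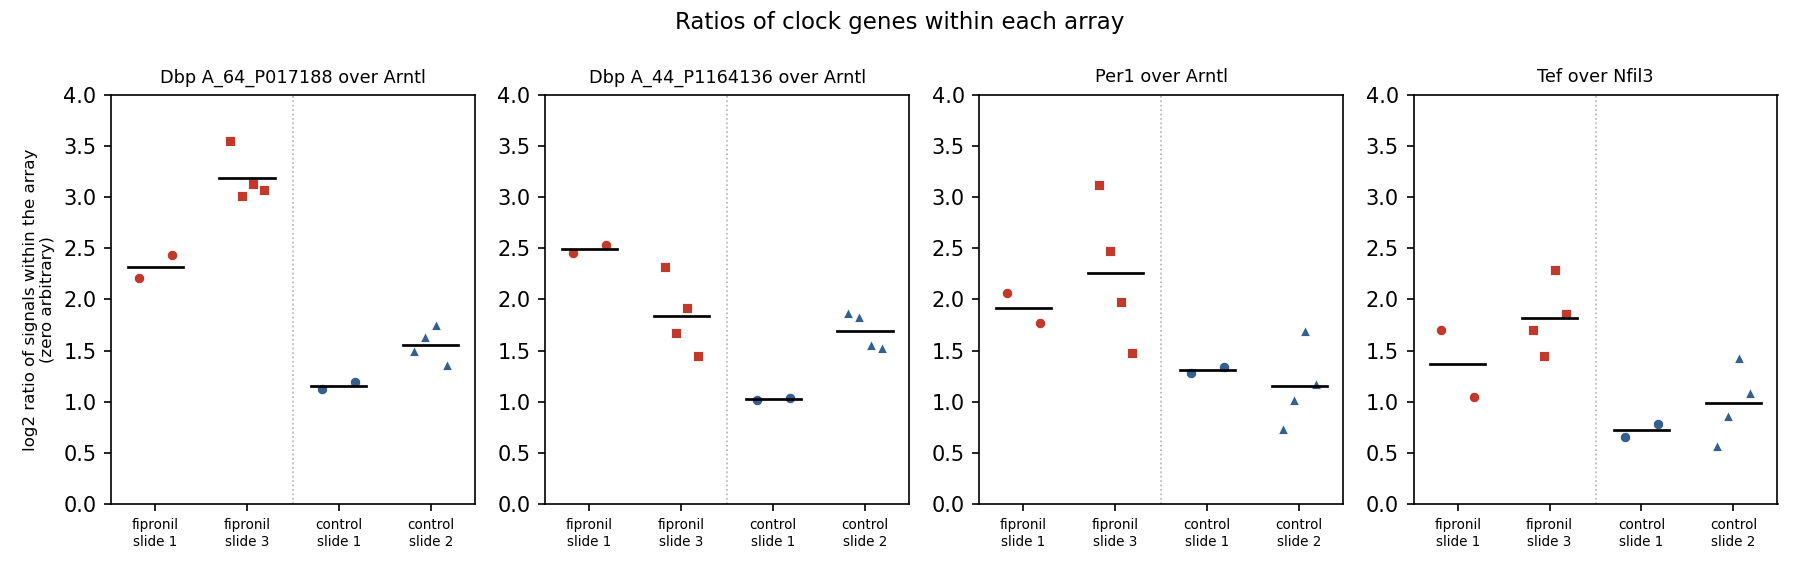
Log2 ratio of 2 clock genes within each array (vertical axes, zero arbitrary) by treatment and slide; points are arrays and lines are means. Dbp over Arntl is higher on every fipronil array than on any control array with the 10-spot Dbp probe (left), as is that probe's own level. With the 1-spot probe (second panel) the separation of the ratio holds on slide 1 but not between slides 3 and 2.

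The repressors of the loop did not pass. Per1, which the E-box activators induce and which also answers acute signals, was read at chr10:55869174-55869233. It gave -0.11 and -0.28 on the fipronil arrays of slide 1 and 0.04, -0.09, -0.30 and -0.46 on those of slide 3. Its controls gave -0.36 and -0.37 on slide 1 and -1.0, -0.76, -0.28 and -0.64 on slide 2. The groups were apart on slide 1 and overlapped elsewhere, with means of -0.20 ± 0.18 with fipronil and -0.57 ± 0.28 in controls (SD, n = 6 each). The difference was 0.37 ± 0.14 (SE; limma, adjusted p = 0.133), 0.18 on slide 1 and 0.47 across the other slides. A second Per1 probe was above background on 0 arrays. Per2 (chr9:90645610-90645669) was above background on 0 fipronil arrays and 3 of 6 control arrays, all on slide 2, and was not tested. The lowest signal called above background differed between slides, being -3.74 to -3.42 on the fipronil arrays of slide 3 and -5.14 to -4.78 on the control arrays of slide 2. Measured Per2 means were -4.62 with fipronil and -4.55 in controls, so no fold is given.

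Cry1, the cryptochrome repressor, was higher with fipronil across slides 3 and 2 and near 0 on slide 1, without passing over 12 arrays. Its probe, at chr7:20708985-20709044, gave -1.88 and -1.68 on the fipronil arrays of slide 1 and -1.10, -1.29, -1.63 and -1.03 on those of slide 3. The controls gave -1.48 and -1.94 on slide 1 and -2.40, -2.10, -2.00 and -2.09 on slide 2. The groups overlapped on slide 1, where the difference was -0.06 ± 0.23 (SE; 0.041 with median scaling), and were apart across the other slides, where it was 0.89. Over 12 arrays the difference was 0.57 ± 0.18 (SE), from -1.43 ± 0.34 with fipronil and -2.00 ± 0.30 in controls (SD, n = 6 each; limma, adjusted p = 0.0772). The contrast between the slide estimates was -0.95 (adjusted p = 0.0583, where 9.14% of all genes passed).

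Nr1d2, a repressor of Arntl, gave -0.70 and -1.63 on the fipronil arrays of slide 1 and -0.95, -0.86, -0.63 and -0.73 on those of slide 3. Its controls gave -1.04 and -0.89 on slide 1 and -1.58, -1.52, -1.47 and -1.38 on slide 2. Fipronil replicate 8 was below all controls, and each of the other 5 fipronil arrays was above at least 5 of the 6 controls. The difference was 0.40 ± 0.18 (SE; limma, adjusted p = 0.195), -0.20 on slide 1 and 0.70 across the other slides. Without fipronil replicate 8 it was 0.54 and passed (adjusted p = 0.029), as did 14.9% of all genes without that array. Means were -0.92 ± 0.37 with fipronil and -1.31 ± 0.28 in controls (SD, n = 6 each). A second Nr1d2 probe and the single probe of its paralogue Nr1d1 were above background on 0 arrays.

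Ciart, a repressor of the E-box activators, was named for 5 probes. The probe for the annotated Ciart mRNA was above background on 1 array, a control of slide 2, and was not tested. The other 4 were designed to predicted transcripts whose records are not among those of the GRCr8 annotation, so their values below are those of the probes, and their assignment to Ciart is uncertain. Of these, 3 were tested. The brightest, at chr2:190670873-190670932, gave -4.54 and -4.36 on the fipronil arrays of slide 1, not well above background, and -1.91, -1.98, -1.97 and -2.33 on those of slide 3. Its controls gave -3.24 and -2.99 on slide 1 and -3.88, -3.75, -3.62 and -4.00 on slide 2. With fipronil it was therefore lower on slide 1 and higher across the other slides, by 1.76 on the log2 scale. With the dim fipronil arrays set to each array's lowest signal called above background, the slide 1 fold was 2.25. That is an approximate bound, because some probes with signals over that lowest value were not called. Over 12 arrays the difference was 0.73 ± 0.47 (SE; limma, adjusted p = 0.347). The random block for slide gave 0.08 (adjusted p = 0.956). The fixed-block value is not given as a call, because its fipronil arrays on slide 1 were not well above background and allow only the bound above. This probe too was brightest through its fipronil arrays, since in controls it averaged -3.58 and the third probe -3.19. A second of these probes, whose position overlaps that of the first, differed by 0.60 over 12 arrays, -0.59 on slide 1 and 1.20 across the other slides. The third differed by -0.09, -0.90 and 0.32 in the same comparisons.

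**Figure D4:**
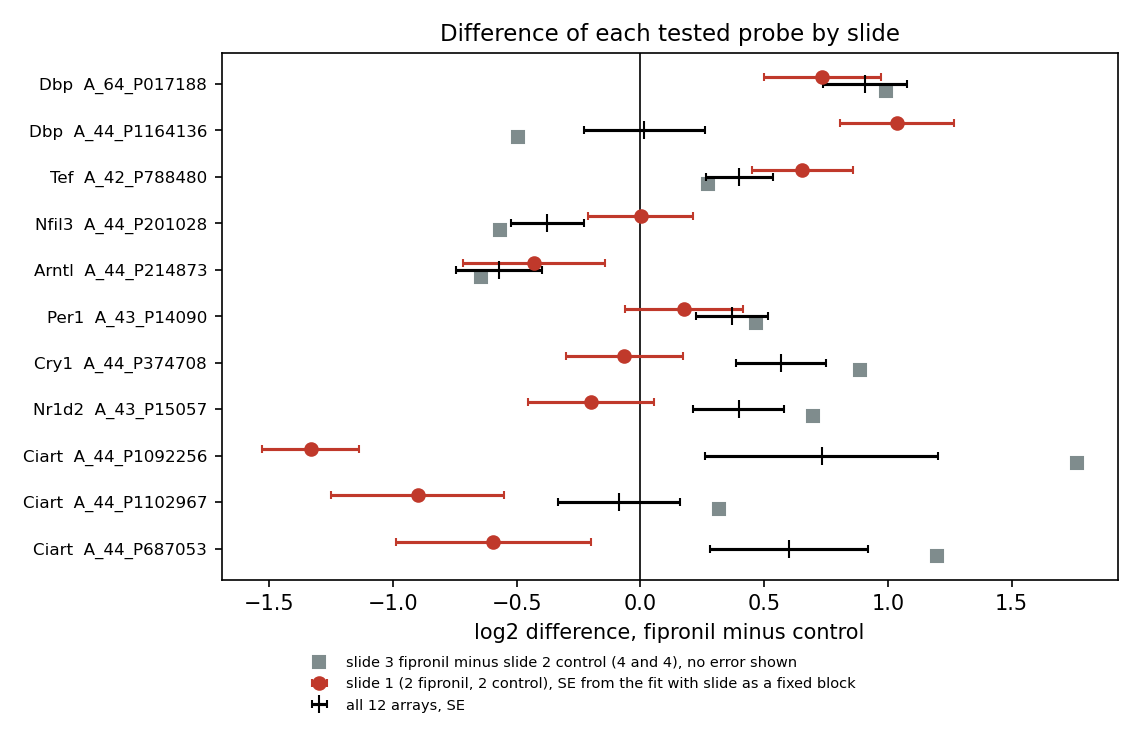
Log2 difference, fipronil minus control, of the 11 tested probes of the clock genes (one row each): black bars are all 12 arrays with SE, red circles are slide 1 (2 fipronil and 2 control arrays) with the SE of the fit with slide as a fixed block, and grey squares are slide 3 fipronil minus slide 2 control. The 10-spot Dbp probe, Tef, Arntl and Per1 keep 1 direction in both estimates, the Ciart probes, Nr1d2 and the 1-spot Dbp probe do not, and Nfil3 and Cry1 are near 0 on slide 1.

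Other clock genes and genes that act on or answer the clock were counted in 5 lists. Over these lists 2 of 29 tested genes passed, 6.9%, a share near the 5.01% of all genes. Of 12 other core clock genes, 4 were tested, with 0 past the threshold in limma and 0 at p under 0.05 before adjustment. Their median difference was 0.15, against -0.08 for all genes. Cry2, a second cryptochrome, differed by 0.19 ± 0.16 (SE), Timeless by 0.31 ± 0.20 and Bhlhe40, an E-box repressor, by 0.11 ± 0.11. Per3, a period gene, differed by -0.47 ± 0.37. Clock was above background on at most 1 array and Npas2 on 0, so these partners of BMAL1 were not tested. Of 11 clock kinases and ubiquitin ligases, 10 were tested, 1 rose and 0 fell, with a median of 0.04. Gsk3b, a kinase that phosphorylates clock proteins, averaged -0.14 ± 0.31 with fipronil and -0.83 ± 0.31 in controls (SD, n = 6 each), a difference of 0.69 ± 0.17 (SE; limma, adjusted p = 0.0396). Its difference was 0.05 on slide 1 and 1.01 across the other slides, and the contrast of these estimates passed (adjusted p = 0.043). The call was lost when slide was a fixed block (adjusted p = 0.916) or a random block (adjusted p = 0.269).

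Of 9 clock and D-box outputs, 6 were tested, 0 rose and 1 fell, with a median of -0.28. Wee1, the cell cycle kinase with an E-box-driven transcript in mouse liver, averaged -0.18 ± 0.27 with fipronil and 0.38 ± 0.13 in controls (SD, n = 6 each). Its fipronil arrays all lay below its controls, as was the case for 2.55% of all genes tested. It fell by 0.56 ± 0.13 (SE) on the log2 scale (limma, adjusted p = 0.0329), with -0.42 on slide 1 and -0.63 across the other slides. It did not pass once slide was a fixed block (adjusted p = 0.335). Alas1, the first enzyme of haem synthesis, differed by 0.68 ± 0.19 (SE; adjusted p = 0.0519), and Nampt, which makes an NAD precursor, by -0.44 ± 0.14 (SE; adjusted p = 0.0839).

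Glucocorticoids, cAMP and serum act on clock genes in culture, so genes that answer them were set beside the clock. Of 6 glucocorticoid-responsive genes 4 were tested, with 0 past the threshold in limma and 3 lower at p under 0.05 before adjustment, as were 15.7% of all genes. Their median difference was -0.41, against -0.08 for all genes. Tsc22d3 (Gilz), induced by the glucocorticoid receptor, differed by -0.99 ± 0.30 (SE; adjusted p = 0.0699), -0.08 on slide 1 and -1.45 across the other slides. Fkbp5, a chaperone of that receptor, differed by -0.07 and Klf9, a transcription factor it induces, by -0.32. The Klf9 difference was -0.59 on slide 1 and -0.18 across the other slides. Sgk1 differed by -0.49, with -0.71 on slide 1 and -0.39 across the other slides. Of 6 cAMP and serum responsive genes 5 were tested, with 0 past the threshold in limma and 0 at p under 0.05 before adjustment. Their median difference was -0.21. The immediate early genes Ier2 and Egr1 differed by -0.23 and -0.26, and the kinase gene Sik1 by -0.21. Crem, a cAMP-responsive transcription factor, and Nr4a1, an immediate early nuclear receptor, differed by 0.24 and 0.22. Whether any of these signals bears on the clock genes was not tested.

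The genes with the profile most like Dbp over the 12 arrays, by the root mean square difference of mean-centred log2 values, were Flot1 (0.111), Mtres1 (0.122) and Fbln1 (0.156), against a median of 0.646 over all genes. Their differences were 0.90, 0.90 and 0.74, and they were chosen by the values that give those differences. For Arntl the nearest were Igfbp1 (0.161), Asb3 (0.163) and Mrps15 (0.165), against a median of 0.467, with differences of -0.44, -0.46 and -0.50.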

How the data were processed

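Scans of the 12 arrays were read with Agilent Feature Extraction 10.7 (submitters' processing notes). The intensity used, the processed signal, is background-subtracted and not scaled between arrays, per the file headers. Flags, other values of 0 or 1, mark spots well above background, saturated or outlying, per the file headers. The deposited table of the series gives log2 values, quantile-normalized per the labels' titles, with a lowest value of 1.5 and a median of 2.63 in each column. Each of its columns ranked the spots much as its own array's processed signal did (lowest rank correlation 0.9946).

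Outlier spots (323 to 711 per array) were left out unless all spots of a probe were marked. Log2 processed signals minus each array's 75th percentile were averaged per probe. Probes well above background on at least 6 of 12 arrays were kept (16291), and the brightest over all 12 arrays, fipronil arrays included, stood for its gene (13541 genes). Fipronil and control arrays (6 each) were compared with limma 3.58.1 in R 4.3.3 (package data.table, version 1.17.8), two-sided, with Benjamini-Hochberg adjustment and a threshold of 0.05; the fit was tested on simulated data. The number of arrays limits the precision, and 0 spots were saturated. Gene names came from RefSeq (GRCr8) where accession, symbol or synonym matched; 17370 probes kept the file's name. Members, gene lists and comparisons were chosen with earlier results of these data known. All members were named, with list genes that passed or, where none passed, the 3 brightest. Alas1, Nampt, Clock, Npas2, Per3, Crem, Nr4a1 and Sgk1 were added after their values were seen. Replicate numbers 2, 3, 7 and 8 occur in both groups, but same-numbered deviations correlated at 0.432, 0.0751, -0.112 and -0.314, so they were not used as pairs. Alternatives covered scaling, background, filter, probe choice, slide, replicate number and each array left out.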

Additional observations from a re-analysis of the deposited data

Results flagged for a closer look

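The contrast between the slide 1 difference and the difference across slides 3 and 2 passed the threshold for 3 of the tested probes of clock genes, when all probes were tested with limma. It was 1.53 on the log2 scale for the 1-spot Dbp probe (adjusted p = 0.0199), -3.09 for the brightest Ciart probe (adjusted p = 0.00081) and -1.79 for another Ciart probe (adjusted p = 0.046). For the brightest Ciart probe 0 of the 2 fipronil arrays on slide 1 were well above background. Its slide 1 difference is thus only an approximate bound, and the size and p of its contrast are not exact. For the other Ciart probe 1 of those 2 arrays was. Before scaling, the processed signals of the brightest Ciart probe overlapped between slides 3 and 2 (22.7 to 36.5 and 25.7 to 38.5). Across all probes 8.19% passed this test. In each of the 3 cases the fipronil arrays of slide 3 and the control arrays of slide 2 gave a difference of the opposite sign to slide 1. Outside slide 1, slide and treatment cannot be told apart.

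For Nr1d2, fipronil replicate 8 at -1.63 stood apart from the other 5 fipronil arrays, which lay between -0.95 and -0.63. Its gap to the nearest of them was 0.679 of the group's range, above Dixon's critical value for a group of this size. Of 22 groups checked 1 was marked, and chance marks about 1 group in 20 by this measure.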

How the results depend on the processing

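The direction of Dbp held in 25 of 25 alternatives, and 20 of them passed, including each of the 12 that left out 1 array (0.79 to 1.01). Dbp did not pass with the mean of both probes (0.46), slide as a fixed block (0.73) or slide as a random block (0.85). Nor did it pass in limma on slide 1 alone (adjusted p = 0.271) or with the replicate block (0.86, adjusted p = 0.195). The 1-spot Dbp probe passed in 0 of 22 alternatives, with adjusted p of 0.0738 to 0.992 in limma. Its direction did not hold, with differences from -0.49 on slides 2 and 3 alone to 1.04 with slide as a fixed block. With median scaling it was -0.085. Tef and Per1 kept their direction in 25 of 25 and passed in 1, the normexp background with the 75th percentile. That setting moved the median difference of all genes to 0.175, against -0.08, and turned Arntl to 0.12 and Nfil3 to 0.15. Cry1, Nr1d2 and Ciart also passed in it. Of 25 alternatives Cry1 passed in 5, Arntl and Nr1d2 in 3 each and Nfil3 in 2. Ciart passed in 3 of 24, lower with slide as a fixed block and higher in the others. Cry1, Nr1d2, Nfil3 and Ciart passed on slides 2 and 3 alone. Arntl passed without a filter on dim probes and with probes above background on all 12 arrays. With slide as a fixed block, and on slide 1 alone, Cry1 turned to -0.065, Nfil3 to 0.0017 and Nr1d2 to -0.20. In the same settings Ciart turned to -1.33, measured against fipronil arrays not well above background (approximate bound 2.25-fold lower). Within slide 1, Cry1 turned to 0.041 with median scaling and to 0.0067 with the normexp background and the 75th percentile. The cause of these turns was not tested. Of 13541 genes tested, 678 passed in the comparison as reported. The count was 6775 (5115 higher, 1660 lower) with the normexp background and the 75th percentile and, of 36175 genes tested without a filter on dim probes, 16310 (15085 higher, 1225 lower). It was 12 with slide as a fixed block, 21 with slide as a random block and 3044 on slides 2 and 3 alone, where fewer samples enter and slide and treatment coincide. It was 0 on slide 1 alone (limma, 2140 at an unadjusted p under 0.05) and 0 with the replicate block (2164). Median scaling moved that median to -0.18 and called 150 higher and 435 lower, against 303 and 375. Leaving out 1 array gave 228 to 2022, with 2022 without fipronil replicate 8 and 228 to 395 without any array other than fipronil replicates 7 and 8. Without fipronil replicate 8, Arntl (-0.63), Cry1 (0.62), Nfil3 (-0.49) and Nr1d2 (0.54) passed, and without fipronil replicate 7 Cry1 did (0.66). Signal over background limits Per2, Nr1d1 and the annotated Ciart mRNA. Only slide 1 separates slide from treatment, with 2 arrays a group.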
